A study of Mus musculus with 8 samples.

Results

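Neurotrophin genes and the genes of their receptors were examined in whole brains of adult mice by bulk RNA-seq. They were chosen by symbol, as 6 of the 24343 genes in the deposited table. The set comprises the ligand genes Bdnf, Ntf3 and Ntf5, the receptor kinase genes Ntrk2 and Ntrk3, and Ngfr. The brains came from 3 C57BL/6NCrl mice 56–62 days of age, a wild-type inbred strain kept under a single condition. Mouse 1 and mouse 2 gave 3 libraries each and mouse 3 gave 2, and neither the sex of each mouse nor the meaning of the library number was given. Libraries of a mouse are not independent animals, so each SD between mice has n = 3, and the tests between mice describe these 3 individuals. The values are FPKM, fragments scaled to transcript length and library size, and a gene's level is the sum over its transcripts, taken as a mean per mouse and then as the mean of the 3 mice.

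Depth per library was 1.31 to 2.02 gigabases on annotated transcripts. Markers of neurons, astrocytes, oligodendrocytes, microglia and endothelial cells were all present, with none at 0 in all libraries. Deviations of the libraries followed transcript length, with Spearman's rho across 13001 genes from 0.183 to 0.503 in mice 1 and 2 and of −0.365 and −0.576 in libraries 1 and 2 of mouse 3. Mouse 3 also differed widely from the others. In a limma fit (moderated F-test, log2(FPKM + 1), Benjamini-Hochberg adjustment), 3496 of the 13001 genes that averaged 1 FPKM or more (26.9%) differed between the mice at an adjusted p under 0.05. The count was 372 without library 2 of mouse 3, and 2215, 2083 and 1969 without library 1, 2 or 3 of mouse 1.

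Neurotrophins are secreted dimeric growth factors that are made as longer precursors and cleaved to their mature form. Each binds a preferred receptor tyrosine kinase of the Trk family: BDNF and the product of Ntf5 bind TrkB, and the product of Ntf3 binds mainly TrkC. Ligand binding turns on the kinase inside the cell and, through it, Ras–MAP kinase, PI3 kinase–Akt and phospholipase C signalling, which serve neuronal survival, dendrite growth and synaptic plasticity. The p75 receptor, encoded by Ngfr, has no kinase, binds all mature neurotrophins and, together with sortilin, their precursors. In the adult brain BDNF is made mostly by excitatory neurons, the truncated form of TrkB is abundant in astrocytes, and the p75 receptor is known for the cholinergic neurons of the basal forebrain.

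TrkB and TrkC transcripts were far more abundant than those of the ligands. Ntrk2, which encodes TrkB, had 77.0 ± 3.98 FPKM (SD, n = 3 mice), a level above that of 96.8% of all genes in the table. Ntrk3, which encodes TrkC, followed at 19.7 ± 3.50 FPKM, and Bdnf had 3.73 ± 0.476 FPKM. Ntf3 had 1.64 ± 0.209 FPKM and Ngfr 1.07 ± 0.362 FPKM. Ntf5 was the lowest member, at 0.0598 ± 0.0160 FPKM. The steps from Ntrk2 to Ntrk3, from Ntrk3 to Bdnf and from Bdnf to Ntf3 held in all 8 libraries with no overlap between the genes. Ntf3 and Ngfr overlapped among the libraries, although the mouse means of Ngfr (0.660 to 1.35 FPKM) lay below those of Ntf3 (1.45 to 1.86 FPKM). All of these are levels per transcript length and are set side by side on that scale. They rest on the deposited transcript models, and those of Ntrk2 and Ntrk3 depend on the model used, as given below.

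**Figure D1:**
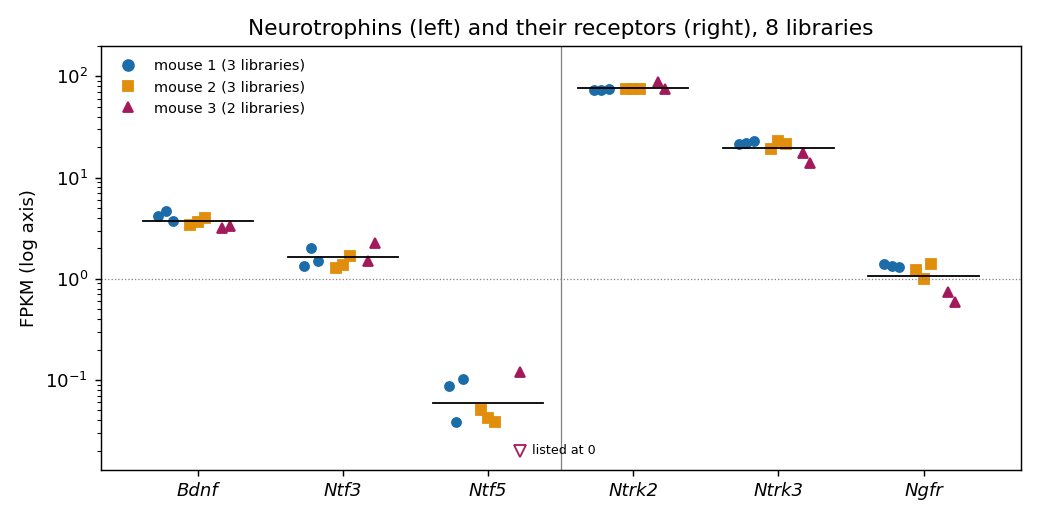
FPKM (log axis) of each neurotrophin gene and receptor gene in the 8 libraries; points are libraries, horizontal lines the mean over 3 mice, and the dotted line the minimum of 1 FPKM for testing. Ntrk2 lies between 74.0 and 87.7 FPKM in every library, Ntf5 lies under 0.12 FPKM and is listed at 0 in library 1 of mouse 3, and both mouse 3 libraries of Bdnf, Ntrk3 and Ngfr lie below the other 6.

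Among 36 receptor tyrosine kinase genes, Ntrk2 ranked 1st by level, with Tyro3 next at 30.9 FPKM. Ntrk3 ranked 4th, between Fgfr3 at 21.8 FPKM and Csf1r at 16.9 FPKM. Among 41 genes of secreted growth factors, Bdnf ranked 16th, Ntf3 23rd and Ntf5 40th. The brain's level of a ligand transcript was low beside that of its receptor: within a library, Ntrk2 was 15.7 to 27.5 times as high as Bdnf.

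Bdnf lies on chromosome 2 from 109674700 to 109727043 (GRCm38, the build mm10 of the deposited table). It reached 4.20, 4.72 and 3.75 FPKM in libraries 1, 2 and 3 of mouse 1. In mouse 2 the level was 3.43, 3.67 and 3.96 FPKM, and in mouse 3 it was 3.19 and 3.36 FPKM. Both libraries of mouse 3 lay just below the other 6, while mice 1 and 2 overlapped. The difference of mouse 3 from the mean of mice 1 and 2 was −0.21 ± 0.09 on the log2 scale (SE), and the mice did not differ past the threshold (limma, adjusted p = 0.146). Under TPM, which gives every library an equal sum, the call changed, with a difference of −0.51 (limma, adjusted p = 0.0107). TPM shifted all genes, with 5726 of 13001 called, 4871 of them lower in mouse 3, and a median of −0.26. Relative to the median of all genes, Bdnf lay at −0.26 with TPM and at −0.23 with FPKM as deposited.

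The Bdnf gene has several promoters, each with its own first exon, and a common last exon that holds the mature protein. Every transcript thus encodes the same mature factor. The deposited table holds 11 Bdnf transcripts with 9 start sites, spread over 48221 bases and named here I to IXa in their order along the gene. Exons I to III start within 2332 bases of each other and exons IV to VII within 1973 bases. Exon IV is the start site best known for its response to neuronal activity, through calcium signals and the transcription factor CREB. The 250 bases before the start sites of exons I and IV are shown because both sites were in use in all libraries and they come from the upstream and the downstream group. Both are on the plus strand, from the RefSeq promoter table on GRCm38, at chr2:109674450-109674699 and chr2:109692186-109692435. Capitals mark the CRE half-site, the letters TGACG or, on the other strand, CGTCA, to which CREB family factors can bind.
Bdnf exon I: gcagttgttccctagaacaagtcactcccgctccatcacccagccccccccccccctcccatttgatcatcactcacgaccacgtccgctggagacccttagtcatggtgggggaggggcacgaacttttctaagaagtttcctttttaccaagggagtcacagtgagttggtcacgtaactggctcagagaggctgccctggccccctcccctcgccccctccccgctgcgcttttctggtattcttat
Bdnf exon IV: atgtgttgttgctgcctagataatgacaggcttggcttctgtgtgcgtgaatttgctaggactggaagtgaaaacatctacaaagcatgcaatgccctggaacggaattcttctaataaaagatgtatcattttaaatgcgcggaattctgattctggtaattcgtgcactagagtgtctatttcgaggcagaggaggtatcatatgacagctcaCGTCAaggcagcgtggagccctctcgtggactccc
The exon IV window held 1 half-site, whose first base lies at −35 from the start site, and the exon I window held none. Among the 7 Bdnf windows in the promoter table, which has none for exons II and VI, 1 held a half-site. Of all 32851 promoter windows of that length, 17.8% held a half-site and 1.55% the full CRE (TGACGTCA), which overlaps the half-site and which was in none of the Bdnf windows. The windows of Ntf3 (2), Ntrk2 (1) and Ngfr (1) held no half-site.

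Start sites I, II, IV and VI together made up 93.3% ± 7.31 (SD, n = 3 mice) of Bdnf FPKM. Exon II transcripts had 1.04 ± 0.166 FPKM and exon VI transcripts 0.926 ± 0.299 FPKM. Exon IV had 0.881 ± 0.274 FPKM and exon I 0.649 ± 0.207 FPKM. The lower confidence bound that the authors deposited was above 0 in all 8 libraries at each of these sites. No site was highest throughout: exon II led in 3 libraries, exon IV in 2, exon VI in 2 and exon I in 1. As a share of Bdnf, exon II ranged from 17.9% to 48.4% among libraries, exon VI from 13.7% to 37.7%, exon IV from 13.7% to 45.8% and exon I from 7.86% to 28.2%. The order of the 4 sites was thus not resolved.

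Exon IV shows how far libraries of a single mouse could part. It had 1.92 FPKM in library 1 of mouse 1, against 0.763 and 0.894 FPKM in libraries 2 and 3 of that mouse. In mouse 2 it had 0.708, 0.503 and 0.838 FPKM, and in mouse 3 0.908 and 0.624 FPKM. The summed level of Bdnf varied much less, with a coefficient of variation between mice of 12.8% against 16.0% to 32.3% for the 4 main sites. Reads of the common last exon fit every Bdnf transcript, and only those on the first exons tell them apart, so the split rests on far fewer reads than the sum. None of the 11 transcripts reached a mean of 1 FPKM, so none was tested on its own.

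The remaining sites were rare. Exon III had a lower bound above 0 in 4 libraries, with a mean of 0.114 ± 0.0917 FPKM. Exon V peaked at 0.778 FPKM in library 1 of mouse 2, and its next highest value was 0.109 FPKM. Transcripts from exons VII, VIII and IXa had lower bounds of 0 in every library, and exon IXa had a mean of 0.00916 FPKM.

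**Figure D2:**
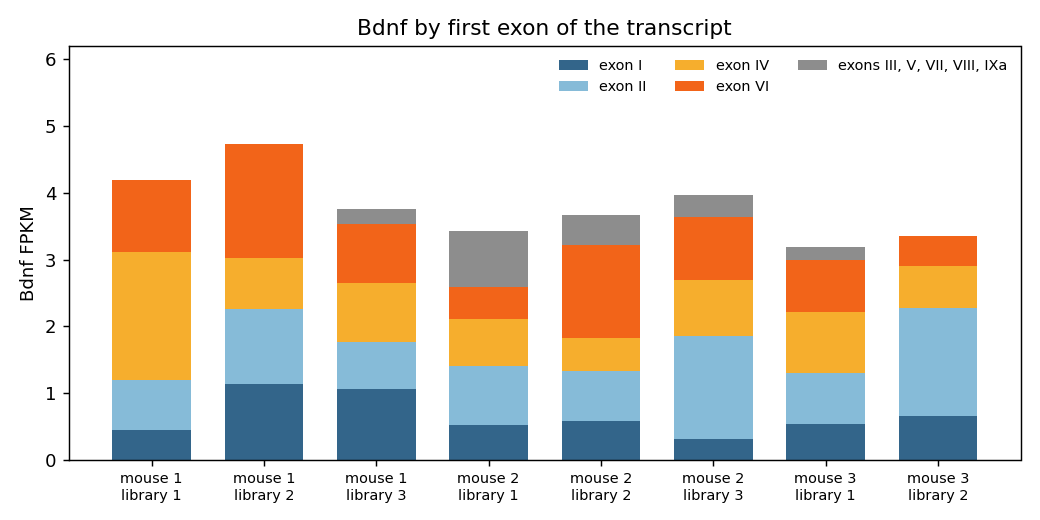
Bdnf FPKM in each library, stacked by the first exon of the transcript, with the rare exons III, V, VII, VIII and IXa as 1 grey segment. The column height, from 3.19 to 4.72 FPKM, varies less than its split, in which exon IV ranges from 0.503 to 1.92 FPKM.

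Ntf3 encodes a ligand of TrkC and lies on chromosome 6 from 126101412 to 126166744. Its level was 1.35, 2.00 and 1.49 FPKM in mouse 1 and 1.27, 1.38 and 1.69 FPKM in mouse 2. Mouse 3 had 1.49 and 2.24 FPKM, within and above the range of the others. The difference of mouse 3 was 0.17 ± 0.14 on the log2 scale (limma, adjusted p = 0.548). Its sign depends on the scaling and on 1 library: it was −0.023 with TPM, −0.13 after each library's trend with transcript length was removed, and −0.018 without library 2 of mouse 3. Bdnf was 1.50 to 3.11 times as high as Ntf3 within a library.

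The 3 Ntf3 transcripts differ only in their first part, and the table gave the level to different ones in different libraries. Transcript NM_001164035 held the level in all libraries of mice 1 and 2, from 1.27 to 2.00 FPKM. In library 1 of mouse 3 it was at 0.0011 FPKM and NM_008742 was at 1.49 FPKM, whereas library 2 had 1.54 and 0.695 FPKM. No share passed the test (limma, adjusted p = 0.536 for the share of NM_001164035).

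Ntf5, also known as Ntf4, encodes the second ligand of TrkB and lies on chromosome 7 from 45413695 to 45417179. It had 0.0863, 0.0388 and 0.103 FPKM in mouse 1 and 0.0508, 0.0421 and 0.0387 FPKM in mouse 2. In mouse 3 it was listed at 0 in library 1 and had 0.119 FPKM in library 2. The deposited lower confidence bound was 0 in all 8 libraries, so the table does not separate this gene from 0, and it was below the minimum for testing. Its mean moved to 0.0796 FPKM without library 1 of mouse 3 and to 0.0399 FPKM without its library 2.

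Ntrk2 spans chromosome 13 from 58806569 to 59133970 and yields 2 kinds of receptor. Full-length TrkB carries the tyrosine kinase domain. Truncated TrkB, here transcript NM_008745, shares the part outside the cell and the membrane span but ends in a short tail with no kinase; it binds BDNF without signalling through a kinase of its own. Transcripts NM_001025074 and NM_001282961 have the same full-length coding sequence and were summed. NM_008745 and NM_001282961 share a start site at 58806569, whereas NM_001025074 starts at 58807697, so reads near the start also bear on the split. The coding sequences were read from the GENCODE transcripts on GRCm38 (plus strand). They are shown around the point where they part, because reads beyond it distinguish the forms. The last 30 shared coding bases are in lower case and the first 35 bases of each form's own exon in capitals.
Ntrk2 truncated: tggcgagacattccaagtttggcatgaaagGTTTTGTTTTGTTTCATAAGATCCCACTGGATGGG
Ntrk2 full-length: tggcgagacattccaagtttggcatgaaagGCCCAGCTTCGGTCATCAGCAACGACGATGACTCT
Both forms share 1393 coding bases. The truncated form then adds 35 coding bases from an exon of its own, at chr13:58932023-58932057, to reach 476 codons. The full-length form skips it to an exon at chr13:58985802-58985990 and reaches 821 codons.

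As a gene, Ntrk2 had the smallest coefficient of variation of the members. Its level was 74.2, 74.0 and 74.3 FPKM in mouse 1, 74.5, 75.2 and 75.7 FPKM in mouse 2, and 87.7 and 75.3 FPKM in mouse 3. Only library 1 of mouse 3 lay outside a narrow band. The coefficient of variation between mice was 5.17%, against a median of 12.3% over all 13001 genes. The difference of mouse 3 was 0.12 ± 0.07 on the log2 scale (limma, adjusted p = 0.430), it was −0.18 with TPM, and it passed the threshold once the trend with transcript length was removed (0.36, limma, adjusted p = 0.00363).

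Truncated and full-length TrkB parted in mouse 3. The truncated transcript had 41.1, 41.5 and 42.0 FPKM in mouse 1 and 42.5, 41.8 and 43.3 FPKM in mouse 2. In mouse 3 it had 62.3 and 57.6 FPKM, above all other libraries. The confidence bounds that the authors deposited did not overlap either, with a lower bound of at least 54.7 FPKM in mouse 3 and an upper bound of at most 45.5 FPKM in the other mice. The difference was 0.50 ± 0.06 on the log2 scale (limma over 16436 transcripts, adjusted p = 0.0137). It was the only call among the 7 of 21 member transcripts with a mean of at least 1 FPKM, where 11.4% of all transcripts tested were called. With the transcripts of all genes tested, the count of calls ranged from 21 without library 2 of mouse 3 to 2407 without its library 1, with 504, 273 and 177 without library 1, 2 or 3 of mouse 1 and 847 and 1151 without library 2 or 3 of mouse 2.

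Full-length TrkB ran the other way. Its summed level was 33.1, 32.5 and 32.4 FPKM in mouse 1 and 32.0, 33.4 and 32.5 FPKM in mouse 2. Mouse 3 had 25.4 and 17.7 FPKM, below the other 6 libraries. Fitted as a sum, a choice made after the values were seen, full-length TrkB was lower in mouse 3 by a difference of −0.60 ± 0.12 on the log2 scale (limma, adjusted p = 0.0413). This call was lost without any one of 7 libraries, all but library 1 of mouse 3, with limma's adjusted p from 0.0504 (library 1 of mouse 2) to 0.104 (library 2 of mouse 3). Fitted alone, NM_001025074 did not pass (−0.48 ± 0.18, limma, adjusted p = 0.180), and in library 1 of mouse 2 it had 20.9 FPKM while NM_001282961 took 11.1 FPKM. The call on truncated TrkB was lost without library 3 of mouse 1 (limma, adjusted p = 0.0510), without library 2 of mouse 3 (0.0589) and with TPM (0.21 on the log2 scale, adjusted p = 0.209), all with the same sign.

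The truncated form made up 55.4% to 57.1% of Ntrk2 FPKM in the 6 libraries of mice 1 and 2. In mouse 3 it made up 71.0% and 76.5%, so that truncated exceeded full-length TrkB by 2.45 and 3.26 times there and by 1.24 to 1.33 times elsewhere. In the fit on shares the difference of 1.10 ± 0.19 on the log2 scale had an unadjusted p of 0.00185 and did not pass the adjustment (limma, adjusted p = 0.490). No share of any gene passed that fit (0 of 7424, or 0%), while 597 had an unadjusted p under 0.05. In bulk samples, fewer cells of a type and less RNA per cell cannot be told apart. Markers of astrocytes moved in the same direction as truncated TrkB: their 9 genes summed to 943 to 1031 FPKM in mice 1 and 2 and to 1567 and 1681 FPKM in mouse 3, and 8 of the 9 were higher in mouse 3 (5 without its library 2, 3 with TPM). The truncated transcript is also shorter, at 7030 bases in the deposited table against 8744, and the libraries of mouse 3 differed from the others in their trend with length. With that trend removed, the difference was 0.71 for the truncated transcript (limma, adjusted p = 0.00287) and −0.35 for summed full-length TrkB (limma, adjusted p = 0.0415), against 0.50 and −0.60 before. The GENCODE model of the truncated transcript has 3049 bases, so its level, its share and its ratio to the full-length form depend on the model used. With TPM the truncated transcript had a difference of 0.21. The median of all transcripts tested was then −0.25, against 0.02 with FPKM as deposited. The parts of cell composition and of transcript length in this result were not tested.

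**Figure D3:**
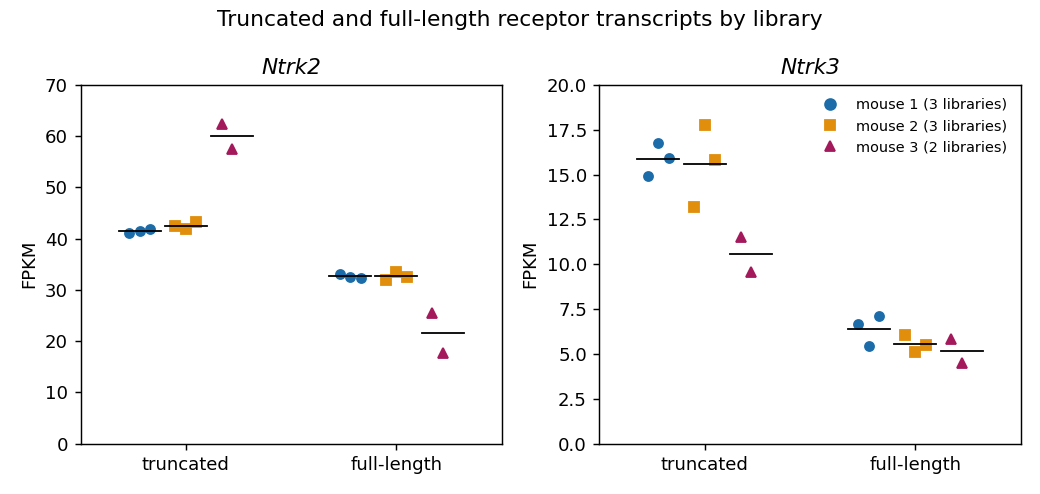
FPKM of truncated and full-length transcripts of Ntrk2 (left) and Ntrk3 (right), each axis from 0; points are libraries and short lines the means of each mouse. In mouse 3 truncated Ntrk2 lies at 57.6 and 62.3 FPKM, above the other libraries, and full-length Ntrk2 at 17.7 and 25.4 FPKM, below them, while truncated Ntrk3 lies below them and full-length Ntrk3 overlaps them.

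Ntrk3 lies on the minus strand of chromosome 7 from 78192114 to 78577838 and likewise gives a kinase receptor and a truncated form. Its level was 21.6, 22.2 and 23.0 FPKM in mouse 1 and 19.2, 22.9 and 21.3 FPKM in mouse 2. It was 17.4 and 14.1 FPKM in mouse 3, below all other libraries. Ntrk3 was lower in mouse 3, by a difference of −0.45 ± 0.10 on the log2 scale (limma, adjusted p = 0.0235), or 0.725 times the mean of the other mice. The call was lost without library 2 of mouse 3 (limma, adjusted p = 0.177) and without library 2 or 3 of mouse 1 (0.0567 and 0.0607), and it held with TPM and with the length trend removed.

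TrkC parts in the same manner as TrkB, after 1585 shared coding bases. The last 30 of these and the first 60 bases of each form are shown, from the GENCODE transcripts, with the bases beyond the fork in capitals.
Ntrk3 truncated: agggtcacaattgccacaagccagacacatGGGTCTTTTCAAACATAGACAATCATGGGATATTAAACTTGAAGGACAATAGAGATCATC
Ntrk3 full-length: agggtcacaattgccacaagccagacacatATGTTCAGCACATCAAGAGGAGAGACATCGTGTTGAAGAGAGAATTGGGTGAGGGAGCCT
The truncated form (NM_182809) continues at chr7:78304292-78304426 and has 612 codons. The full-length form (NM_008746) continues at chr7:78260284-78260414 and has 825 codons.

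Truncated TrkC was the more abundant form, at 14.0 ± 2.99 FPKM against 5.71 ± 0.632 FPKM for the full-length form. It made up 66.3% to 77.6% of Ntrk3 FPKM, and the mice overlapped in this share. The table's model of the full-length transcript is 2978 bases long and that of GENCODE 19703 bases, so its level depends on the model used. Truncated TrkC had 14.9, 16.7 and 15.9 FPKM in mouse 1, 13.2, 17.8 and 15.8 FPKM in mouse 2, and 11.5 and 9.58 FPKM in mouse 3. It lay lower in mouse 3 without passing the threshold (−0.53 ± 0.12, limma, adjusted p = 0.0576), and passed it with TPM (0.00845) or without library 1 of mouse 2 (0.0269). Full-length TrkC overlapped between the mice (4.49 and 5.86 FPKM in mouse 3, 5.14 to 7.11 FPKM elsewhere; −0.18 ± 0.13, limma, adjusted p = 0.402). The share of the truncated form did not pass (limma, adjusted p = 0.785).

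Set against each other, the receptors shifted in balance between the mice. Ntrk2 was 3.23 to 3.88 times as high as Ntrk3 in mice 1 and 2, and 5.04 and 5.35 times as high in mouse 3. Among the truncated forms, TrkB exceeded TrkC by 2.35 to 3.22 times in mice 1 and 2 and by 5.40 and 6.01 times in mouse 3. Among the full-length forms the ratio was 4.55 to 6.51 in mice 1 and 2 and 4.34 and 3.94 in mouse 3. Thus the ratio of truncated receptors separated mouse 3 upward, and the ratio of full-length receptors lay in mouse 3 just under the range of the others. These ratios are within libraries and were not tested.

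Ngfr, the gene of the p75 receptor, lies on chromosome 11 from 95568821 to 95587698 and has a single transcript in the table. It had 1.38, 1.35 and 1.31 FPKM in mouse 1 and 1.21, 0.997 and 1.39 FPKM in mouse 2. In mouse 3 it had 0.734 and 0.586 FPKM, below all other libraries. Ngfr was lower in mouse 3, by a difference of −0.45 ± 0.11 on the log2(FPKM + 1) scale (limma, adjusted p = 0.0349). Its mean over mice, 1.07 FPKM, was just above the minimum for testing. It passed that minimum through mice 1 and 2, since mouse 3 had a mean of 0.660 FPKM. With no minimum level the difference was also −0.45 (limma, adjusted p = 0.0322). The ratio of FPKM was 0.518, a larger change than the pseudocount scale shows at this level. The call was lost without library 2 of mouse 3 (limma, adjusted p = 0.188), without library 1, 2 or 3 of mouse 1 (0.0733, 0.0747 and 0.0736) and with the length trend removed (−0.41, limma, adjusted p = 0.0621). In the fit across transcripts, which holds the same Ngfr values among 16436 features, it did not pass either (limma, adjusted p = 0.151). Markers of basal forebrain cholinergic neurons, the cells best known for this receptor, were also low in mouse 3, with a sum of 4.31 and 4.56 FPKM against 5.43 to 6.78 FPKM in the other mice. Of these 6 markers 3 were tested and 0 called by limma, with 1 at an unadjusted p under 0.05. Slc5a7, the choline transporter, had a difference of −0.28 (limma, adjusted p = 0.129), and Slc18a3, the vesicular acetylcholine transporter, one of −0.31 (0.0731). Whether the number of such cells differed was not tested.

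In all, 5 of the 6 genes reached the minimum for testing, Ngfr with the mean of mouse 3 itself below it. Of these, 2 were called, both lower in mouse 3. Over all genes tested, 26.9% were called, 15.0% as higher in mouse 3 and 11.9% as lower. For 3 genes both libraries of mouse 3 lay below the other 6, as did 21.7% of all genes tested. The median difference of the 5 genes was −0.21 on the log2 scale, against 0.02 over all genes. TPM shifted the median of all genes to −0.26, so members are best read relative to it: with TPM, Ntrk3 and Ngfr lay 0.50 and 0.64 below the median of all genes and Bdnf 0.26 below it, while Ntrk2 lay 0.08 and Ntf3 0.23 above it. With the length trend removed, Ntrk3 and Ngfr lay 0.38 and 0.40 below the median, Bdnf 0.11 and Ntf3 0.12 below it, and Ntrk2 0.37 above it.

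**Figure D4:**
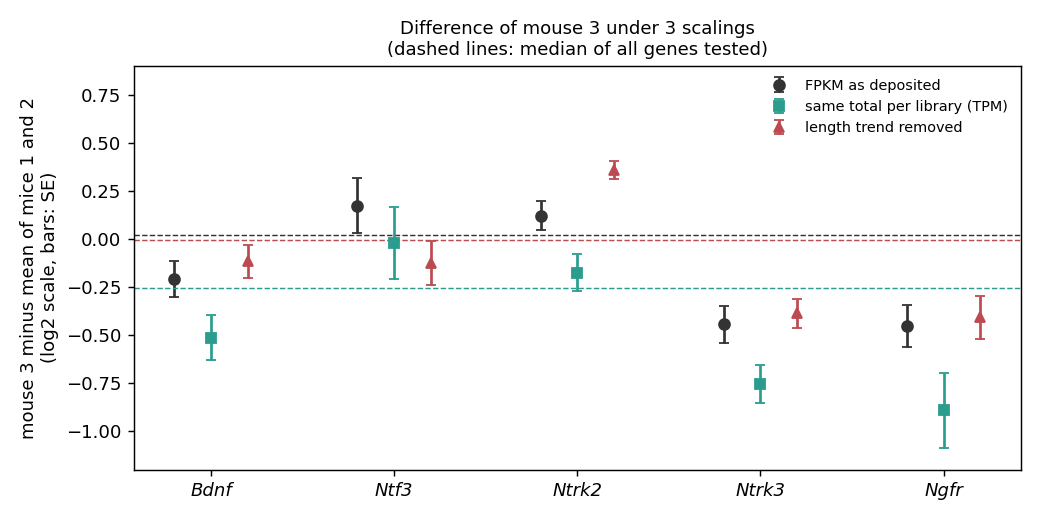
Difference of mouse 3 from the mean of mice 1 and 2 on the log2 scale for each member tested (points, bars are SE), with FPKM as deposited, with TPM, and with each library's trend with transcript length removed; dashed lines mark the median of all genes under each. Ntrk3 and Ngfr lie below the median under all 3, from −0.39 to −0.89, and Ntf3 and Ntrk2 change sign between them.

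Genes that process and sort neurotrophin precursors were abundant. Carboxypeptidase E (Cpe), which helps to sort precursors into secretory granules, had 916 FPKM and was higher in mouse 3 (0.45 ± 0.11, limma, adjusted p = 0.0333). Sortilin (Sort1), a receptor for precursors with p75, had 53.4 FPKM and was lower (−0.41 ± 0.08, adjusted p = 0.0196), and so was the convertase gene Pcsk2 (−0.61 ± 0.07, adjusted p = 0.00414). Of 14 such genes tested among 19, 2 were higher and 3 lower, with a median difference of −0.18. It was 0 and 6 with TPM and 1 and 1 with the length trend removed, and without library 2 of mouse 3, 1 gene was called, as lower.

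Downstream of the Trk receptors, calls went both ways. Among 23 of 24 adaptor and early signalling genes tested, 3 were higher and 5 lower (median −0.21). They included the adaptor gene Shc3, higher at 0.55 ± 0.10 (limma, adjusted p = 0.0107), and Slitrk5, whose product is a TrkB partner, lower at −0.60 ± 0.10 (adjusted p = 0.0100). Among 29 kinases and small G proteins, all tested, 7 were higher and 7 lower (median −0.12), with Camk2a, a calcium-dependent kinase of excitatory synapses, higher (0.53 ± 0.08, limma, adjusted p = 0.00846). With TPM, no gene was higher and 13 and 18 were lower in these lists, while the median of all genes shifted as well. With the length trend removed, 4 adaptor genes were higher and 3 lower, and 5 kinase genes were higher and 4 lower. Without library 2 of mouse 3, 1 adaptor gene was called, as higher, and 1 kinase gene in each direction.

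Partners and effectors of the p75 receptor gave 2 higher and 7 lower of 33 tested among 34, with a median difference of −0.03, and none was called without library 2 of mouse 3. The counts were 0 and 14 with TPM and 1 and 5 with the length trend removed. Lingo1 and Rtn4r, which form a receptor complex with p75 for myelin inhibitors, were both among the lower ones, Lingo1 by −0.52 ± 0.08 (limma, adjusted p = 0.00758), as was Maged1 by −0.48 ± 0.10 (adjusted p = 0.0221). Ngfrap1, whose product binds p75, and the related receptor gene Tnfrsf19 were the higher ones. The share called, 9 of 33, was near the background of 26.9%.

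Regulators of the Bdnf gene had 3 higher and 5 lower of 21 tested among 24 (median −0.22), with Mef2c, an activity-regulated factor, lower by −0.95 ± 0.08 (limma, adjusted p = 0.00298) and Camta1 by −0.45 ± 0.07 (adjusted p = 0.00708). Of 21 genes induced by TrkB signalling, 19 were tested, 1 was higher and 4 lower (median −0.22). This share called, 5 of 19, was near the background of 26.9%. The lower ones were Junb, Egr1, Egr3 and Homer1, early response and synaptic genes, with Egr1 at −0.82 ± 0.07 (adjusted p = 0.00320) and Homer1 at −0.47 ± 0.07 (adjusted p = 0.00810). Pvalb, which encodes parvalbumin, was higher (0.78 ± 0.17, limma, adjusted p = 0.0245), and the cells behind this level were not tested. With TPM, 0 regulators were higher and 12 lower, and 1 induced gene was higher and 12 lower. The counts with the length trend removed were 3 and 5 for regulators and 0 and 5 for induced genes, and with library 2 of mouse 3 left out, 1 gene was called in each list, as lower.

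Other families were set beside the members for comparison. Of 26 further receptor tyrosine kinases tested among 33, 2 were higher in mouse 3, Axl (0.59 ± 0.08, limma, adjusted p = 0.00526) and Mertk, receptors that serve the uptake of dying cells, and 1 was lower, Kit (−0.39 ± 0.07, adjusted p = 0.0151), with a median of −0.01. With TPM, 0 of these kinases were higher and 9 lower, with the length trend removed 5 and 2, and without library 2 of mouse 3, 2 and 0. Of 25 further secreted growth factors tested among 37, 7 were higher and 2 lower, with a median of 0.04. This balance did not hold with TPM (1 higher and 6 lower) or without library 2 of mouse 3 (1 and 0), and it was 5 and 1 with the length trend removed. Ptn, at 100.2 FPKM the most abundant of them, was among the higher ones (0.45 ± 0.08, adjusted p = 0.0114), and so was Fgf1 (0.54 ± 0.07, adjusted p = 0.00526).

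Marker lists of cell types and brain structures are given beside the members, and most of their calls were among neurons, astrocytes and microglia. Of 7 neuron markers, 4 were lower (Syt1, Rbfox3, Gad1 and Gad2; 2 without library 2 of mouse 3, all 7 with TPM), with sums of 1659 and 1775 FPKM against 1941 to 2095 FPKM. Astrocyte markers had a median difference of 0.52, with Gfap at 1.03 ± 0.09 (limma, adjusted p = 0.00344). In the oligodendrocyte lineage 1 of 8 was higher, Mbp (1.27 ± 0.12, adjusted p = 0.00358), and the sum was 3746 and 4628 FPKM against 1949 to 2163 FPKM. Microglia had 3 of 6 higher by limma, but 1 with TPM or with the length trend removed and 0 without library 2 of mouse 3. Endothelial cells had 0 of 6 (1 at an unadjusted p under 0.05 in limma), but 2 higher with the length trend removed and 1 without library 2 of mouse 3. Pericytes and leptomeningeal fibroblasts had 1 of 8 higher. Hippocampal markers had 1 higher and 1 lower of 5 tested, cerebellar markers 1 lower of 6, and choroid plexus markers 1 lower of 5. With TPM, 3, 2 and 2 of these were lower and none higher. The cerebellar call was Neurod1, but the median difference of that list was 0.17, with 3 of 6 at an unadjusted p under 0.05 in limma. Its sums were 277 and 430 FPKM in mouse 3 against 284 to 311.5 FPKM in the other mice. Peripheral nerve and sensory ganglia, where Ngfr is high, had sums of 3.63 and 3.83 FPKM in mouse 3 against 3.53 to 4.05 FPKM, with 2 of 7 tested and 0 called (0 at an unadjusted p under 0.05 in limma). The pituitary list had sums of 2.12 and 2.47 FPKM against 2.19 to 3.17 FPKM, with 1 of 5 tested and 0 called (0 at an unadjusted p under 0.05 in limma). The part of these cell types in the differences of the members was not tested.

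The genes most like each member over the 8 libraries, by Pearson's r of log2(FPKM + 1) among all genes tested, are given as a description, since the libraries come from 3 mice and share the split of mouse 3. Ntrk3 was most like Ogt (r = 0.995), Kl (0.994) and Usp11 (0.993), all lowest in mouse 3. Ngfr was most like Arih1 (0.992), Ugcg (0.984) and Efna5 (0.984), and Bdnf most like Ppp2r5a (0.966), Lrrc6 (0.957) and Zfp354a (0.952). Ntf3 was most like Acadvl (0.958), Cox16 (0.958) and Rnf139 (0.957). For Ntrk2 the 3 leading genes, Snora7a, Snord89 and Rnu12 (each 0.990), are short RNAs with a mean of 0 FPKM in mice 1 and 2, so this likeness is set by library 1 of mouse 3. Among the members, r was 0.844 between Ntrk3 and Ngfr, 0.740 between Bdnf and Ngfr and 0.636 between Bdnf and Ntrk3, whereas Bdnf and its receptor gene Ntrk2 had an r of −0.562.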

How the data were processed

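Whole-brain RNA of 3 mice had been sequenced as 8 libraries (RNAqueous Micro kit, RNA integrity number above 8, Kapa mRNA HyperPrep kit, NextSeq500). The authors deposited FPKM values with lower and upper confidence bounds for each of 34535 RefSeq transcripts and the coverage per base, a signal not scaled for library size, which served only to estimate depth and for an alternative share. The submitters' processing notes name TopHat, Cufflinks and mm10, without versions; strand setting and read length are not given in the sources used here. Cufflinks divides reads between a gene's transcripts, so single transcripts are less certain than sums. Counts could not be recovered from FPKM, so no count test or counting interval was made. The 8 values with a status of FAIL lie in 2 genes outside those described.

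Members were matched by symbol and transcripts by identifier. Values were summed per gene, averaged per mouse, then over mice. Differences were tested with limma 3.58.1 in R 4.3.3 (moderated F-test over 3 mice, eBayes with trend) on log2(FPKM + 1), among features that averaged 1 FPKM or more, with p-values adjusted by Benjamini-Hochberg (threshold 0.05), fitted over all genes, all transcripts and all transcript shares (a transcript against the rest of its gene). Libraries of a mouse served as replicates; whether they are separate extractions is not stated, so p-values measure the spread between these libraries, which may be technical. Differences are mouse 3 minus the mean of mice 1 and 2, with SE. The fit was tested on simulated data. Alternatives were another pseudocount, minimum or eBayes prior, TPM, removal of each library's lowess trend with transcript length (span 0.3), a block on library number, and each library left out in turn.

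The named genes are all members and their transcripts, in each of 21 gene lists some of the 2 highest and 2 of smallest adjusted p, and for each member the 3 genes of highest r. Mertk, Rtn4r, Ngfrap1, Tnfrsf19, Junb and Egr3 were named after their values were seen. Some listed genes are not reported here. Members and lists were chosen with earlier results of these data known. Of 297 listed genes, 8 stand in a pathway list and a marker list, and the p75 list holds 36 symbols, 34 of them in the table. No other gene of the table overlapped a member's transcripts. Promoter windows come from RefSeq (GRCm38.p6) and coding sequences from GENCODE vM21 (GRCm38).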

Additional observations from a re-analysis of the deposited data

Results flagged for a closer look

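In 6 of 22 measures of the members, a single library stood apart from the other 7, with a gap to the nearest library of more than 0.526 of the whole range. About 1 in 20 groups of 8 independent values from 1 normal distribution would pass this limit. The libraries come from 3 mice and the measures share them, so that rate does not hold here and the count is only a description. Ntrk2 reached 87.7 FPKM in library 1 of mouse 3, and 75.7 FPKM in the next highest library. Bdnf exon IV transcripts reached 1.92 FPKM in library 1 of mouse 1 (next 0.908 FPKM), and exon V transcripts 0.778 FPKM in library 1 of mouse 2 (next 0.109 FPKM). The full-length Ntrk2 transcript NM_001282961 reached 11.1 FPKM in library 1 of mouse 2 (next 2.00 FPKM), and it shares its coding sequence with NM_001025074. Of the Ntf3 transcripts, NM_001164035 fell to 0.0011 FPKM in library 1 of mouse 3 (next lowest 1.27 FPKM), and NM_008742 reached 1.49 FPKM in that library (next 0.695 FPKM). The cause of these gaps was not tested.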

How the results depend on the processing

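The number of genes that differed between the mice was 3496 as reported, 5726 with TPM (855 higher and 4871 lower in mouse 3, against 1954 and 1542), and 372 to 4131 with a library left out. For transcripts it was 1875, with 3990 under TPM, 871 with no minimum level, 1179 without an eBayes trend, and 21 to 2407 with a library left out. For transcript shares it was 0, with 5 at a minimum and pseudocount of 0.1 FPKM, 2 with no minimum, and 0 to 2 with a library left out. The truncated Ntrk2 transcript kept its sign under all 15 alternatives; TPM gave 0.21 (limma, adjusted p = 0.209), and leaving out a library 0.45 to 0.56, with 6 of 8 under the threshold.

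Signs reversed for Ntf3 (−0.023 with TPM, −0.13 with the length trend removed, and −0.018 to 0.36 with a library left out, negative without library 2 of mouse 3) and for Ntrk2 (−0.18 with TPM). Ntrk3 and Ngfr kept their sign in all alternatives, from −0.30 to −0.75 and from −0.39 to −0.89, with adjusted p from limma of 0.00143 to 0.177 and 0.0114 to 0.188. The libraries whose removal ended a call are named above with each gene.

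Libraries with the same number had weak positive correlations of their deviations (7 pairs, r from 0.0028 to 0.107, 1 pair over 0.1). The deviations of the libraries of mouse 3 mirror each other by construction and add little. This check cannot tell whether the number marks a shared factor. With library number as a replicate block, 3385 genes, 1579 transcripts and 0 shares were called, and Ntrk3 and Ngfr did not pass (limma, adjusted p = 0.0530 and 0.0834), nor did summed full-length Ntrk2 (−0.60, adjusted p = 0.0725), while truncated Ntrk2 did (0.0245). No count test could be run. Levels below 1 FPKM rest on few reads. The deposited bounds are for single transcripts, and summed over those of Bdnf they gave 2.16 and 5.52 FPKM. Such sums are not a confidence interval of the gene.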
